A study of Drosophila melanogaster with 8 samples.

Results

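Kayak (kay), Jun-related antigen (Jra), Activating transcription factor 3 (Atf3) and Ets at 21C (Ets21C) are 4 stress-response transcription factor genes of Drosophila melanogaster. They were taken by their FlyBase symbols from a table of 15348 genes, and all 4 were present in it. RNA had been sequenced from imaginal discs, the larval epithelia that form adult structures, pooled from 50 to 60 wandering larvae of the last instar per genotype. Each of the 8 groups had 1 library.

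The 7 groups labelled as eye-antennal discs were mosaics. All of them, the control included, carried y, w, the eye-expressed recombinase eyflp, the cassette act>y+>Gal4 with UAS-GFP, and a chromosome with FRT82, e and tub-GAL80 over a second FRT82 chromosome. Recombination leaves clones of cells without the Gal4 repressor GAL80, so that transgenes run in those clones only, among cells that lack them. RasV12 carried UAS-Ras[V12], an always-active Ras85D, and was taken 5 days after egg laying. BskDN carried UAS-Bsk[DN], which blocks the Jun N-terminal kinase (JNK) that the gene Basket (bsk) encodes, and was taken at 11 days. The library named here scrib BskDN added to Bsk[DN] an FRT82 chromosome with e and a scribble allele, for which the label text ends at scrib[2, and was taken at 6 days. Scribble (scrib) is an apico-basal polarity gene. RasV12 scrib BskDN held all 3 changes and was taken at 6 days. RasV12 scrib, the tumour genotype, carried UAS-Ras[V12] with the same scrib chromosome and was taken at 7 days and at 11 days, called the day 7 and the day 11 tumour here. The library labelled scrib wing discs came from whole scrib[2]/scrib[1] larvae of a stock with w, FRT82 and e, without the clone system, at 6 days. The control had the clone system, GFP included, without a further transgene or scrib allele and was taken at 5 days.

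Kay (the fly Fos) and Jra (the fly Jun) pair through basic leucine zippers (bZIP) to form AP-1, the transcription factor that JNK activates by phosphorylation. Atf3 is a further bZIP factor of the stress response, and Ets21C is an Ets domain factor. JNK signalling in imaginal discs is known for its roles in wound closure, cell death and regeneration and in the overgrowth of polarity-deficient Ras tumours. Because these factors are also controlled as proteins, an RNA level is not a measure of their activity.

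Between 17152279 and 21027972 counts per library were assigned to genes. Values are normalized CPM, the counts relative to library size after scaling for library composition, with exact 95% intervals that cover counting error only. Without replicates no difference could be set against a replicate spread, and p-values are left out. In bulk discs, fewer cells of a type and less RNA per cell cannot be told apart. No cell type marker on the lists was at 0 counts in any library. The levels of Ras85D and bsk, the genes carried as transgenes, went with the labels, and that of scrib did not. Ras85D was between 426 and 1181 CPM in the 4 libraries with Ras[V12] and between 252 and 284 CPM in the other 4. The bsk gene was between 749 and 1891 CPM with Bsk[DN] and between 92.4 and 109 CPM without it. The RNA of scrib was between 363 and 510 CPM in libraries with scrib alleles and between 399.8 and 454 CPM in the others. The scrib change is therefore known from the labels only. Muscle markers, 5 measured of 7, summed to between 191 and 528 CPM in the other libraries and to 3932 CPM in the control, so comparisons over control move with them and their part was not tested. The wing label was not borne out: the 4 measured of 5 wing markers summed to 6.29 CPM in that library, below the range of 7.33 to 32.1 CPM in eye-antennal libraries. The 8 retinal markers summed to 282 CPM there and to between 741 and 1533 CPM in eye-antennal libraries. The 7 antennal markers summed to 961 CPM there, within the eye-antennal range of 588 to 1254 CPM, and the protocol text for that library is the one given for the eye-antennal samples. That library is therefore described by its levels, and no fold over another group is read from it.

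Coordinates are from BDGP6 and were matched on gene IDs; no source used here gives the build the authors counted on. Kay (FBgn0001297) lies on 3R:29765995-29794113 on the plus strand. It has 5 annotated transcripts, which gene counts do not separate. Jra (FBgn0001291) lies on 2R:10096480-10098556, also on the plus strand. Atf3 (FBgn0028550) spans X:1242740-1275284 and Ets21C (FBgn0005660) spans 2L:544925-552923, both on the minus strand. The acetylcholine receptor gene nAChRbeta3 lies within Ets21C on the opposite strand and shares 1532 exon bases with it, 28.3% of the exon length of Ets21C. No source used here gives the strand setting of the counting, so reads in that stretch cannot be assigned with certainty. The RNA of nAChRbeta3 ran from 12.9 to 60.0 CPM outside the control and was at 37.8 CPM in the control, where Ets21C had only 34 counts. Jra shares 39 exon bases, 2.38% of its exon length, with RpLP0-like on the opposite strand, and neither kay nor Atf3 shares exon bases with another annotated gene.

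Ets21C differed most between libraries. Its level was 8.04 CPM in RasV12, 3.13 CPM in BskDN and 15.0 CPM in scrib BskDN. RasV12 scrib BskDN had 6.20 CPM, the day 7 tumour 154 CPM and the day 11 tumour 204 CPM. The library labelled scrib wing discs had 64.2 CPM and the control 1.83 CPM. The tumour libraries and the scrib library without a JNK block were high, and every library with Bsk[DN], RasV12 alone and the control were low. The highest and lowest libraries were 112-fold apart. Behind these levels stood 4087 counts in the day 11 tumour and 34 in the control, whose level had an interval of 1.26 to 2.55 CPM. All 7 steps between neighbours in the order of levels were beyond counting error.

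Atf3 was at 27.4 CPM in RasV12, 15.4 CPM in BskDN and 33.2 CPM in scrib BskDN. RasV12 scrib BskDN had 23.7 CPM, the day 7 tumour 74.5 CPM and the day 11 tumour 71.3 CPM. Levels were 68.0 CPM in the library labelled scrib wing discs and 36.3 CPM in the control. Its levels thus fell into a high set of 3 libraries, with scrib changes and no Bsk[DN], and a lower set of 5. Within the high set, neighbours differed by less than counting error, with folds of 1.04 (0.971 to 1.12) and 1.05 (0.970 to 1.14). The step from the lowest of that set, the library labelled scrib wing discs, down to the control was 1.87-fold (1.70 to 2.07). BskDN alone was lowest, at 290 counts.

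Kay was at 101 CPM in RasV12, 123 CPM in BskDN and 215 CPM in scrib BskDN. RasV12 scrib BskDN had 121 CPM, the day 7 tumour 208 CPM and the day 11 tumour 326 CPM. The library labelled scrib wing discs had 222 CPM and the control 125 CPM. The day 11 tumour stood highest, 1.47-fold above the next library (1.41 to 1.53). The library labelled scrib wing discs, scrib BskDN and the day 7 tumour followed, with steps between neighbours within counting error. The control, BskDN and RasV12 scrib BskDN did not differ beyond counting error between neighbours either, and RasV12 was lowest. All libraries together spanned 3.24-fold.

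Jra had the narrowest range. It was at 77.7 CPM in RasV12, 67.6 CPM in BskDN and 111 CPM in scrib BskDN. RasV12 scrib BskDN had 82.8 CPM, the day 7 tumour 114 CPM and the day 11 tumour 104 CPM. Its highest level, 146 CPM, was in the library labelled scrib wing discs, and the control had 68.0 CPM. The 4 libraries with scrib changes, other than RasV12 scrib BskDN, were above the other 4. Over the eye-antennal libraries Jra spanned 1.69-fold, against 3.24-fold for kay, 4.85-fold for Atf3 and 112-fold for Ets21C.

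**Figure D1:**
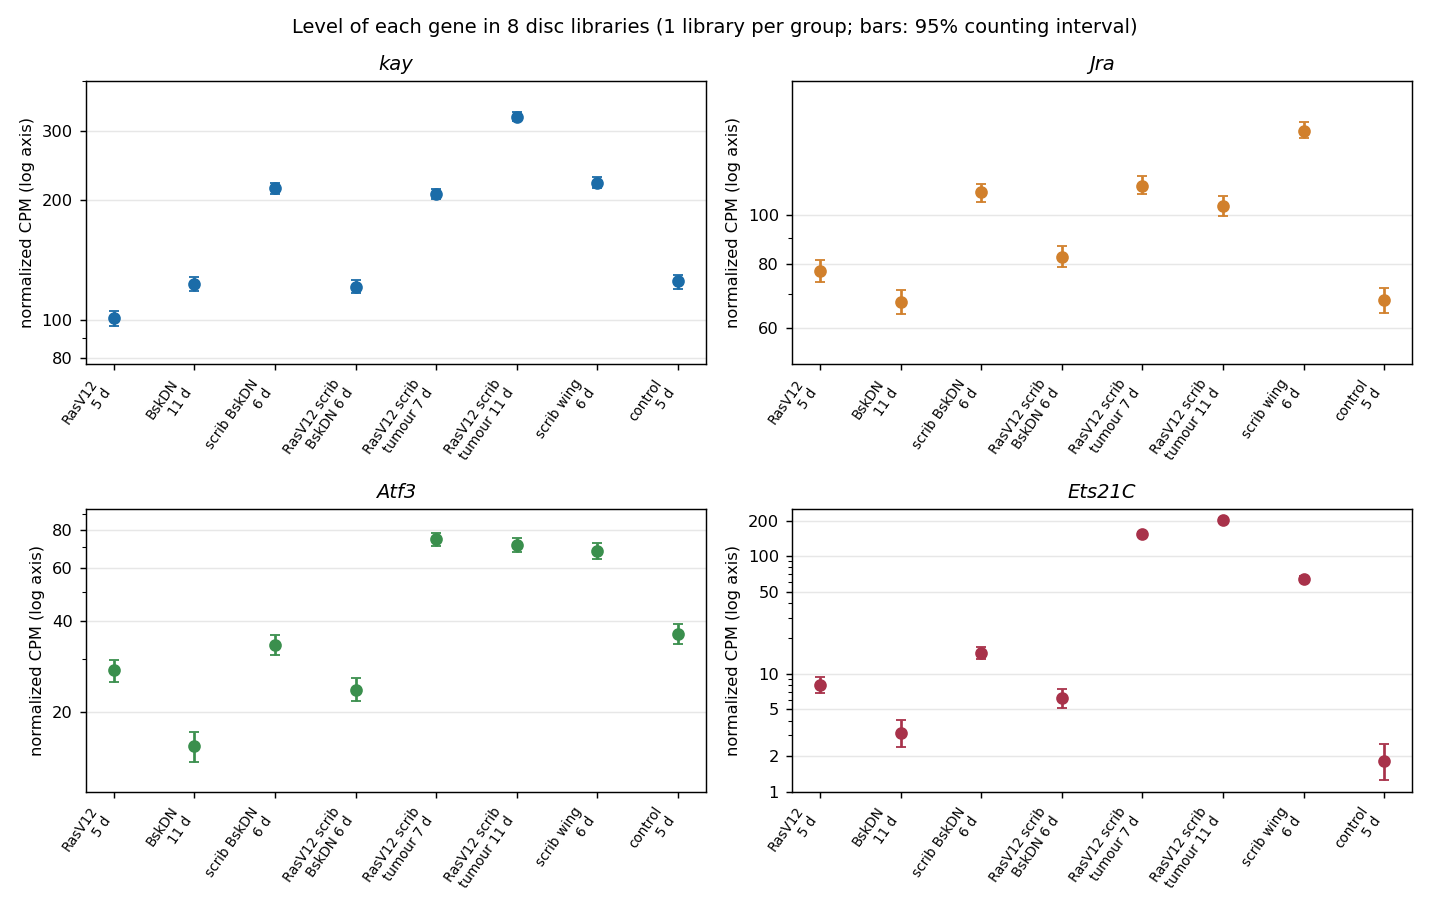
Normalized CPM (log axis) of each factor gene in the 8 libraries, 1 point per library with its 95% counting interval. Ets21C reaches 204 CPM in the day 11 tumour, against 1.83 CPM in the control, while Jra stays between 67.6 and 146 CPM.

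Levels of different genes were compared only per kb of exon, the union over transcripts. On that scale Jra was the most abundant of the 4 genes in every library, with a level of 63.4 CPM per kb in the day 11 tumour, 69.6 in the day 7 tumour and 41.4 in the control. Kay was at 41.9 CPM per kb in the day 11 tumour and 26.7 in the day 7 tumour. The ratio of the kay to the Jra level per kb was 0.661 in the day 11 tumour and between 0.273 and 0.409 in the other libraries. Ets21C exceeded kay in the day 7 tumour, at 28.4 CPM per kb, and was the least abundant of the 4 in the control, at 0.338 CPM per kb. Its share of the summed level per kb of the 4 genes was 21.0% in the day 7 tumour, 24.6% in the day 11 tumour and 0.536% in the control. If reads in the stretch shared with nAChRbeta3 were not counted, the level of Ets21C per kb is too low. Jra exons are short, 1642 bases against 7789 for kay, 7025 for Atf3 and 5407 for Ets21C, and an isoform shorter than the union of exons would likewise make a level per kb too low.

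**Figure D2:**
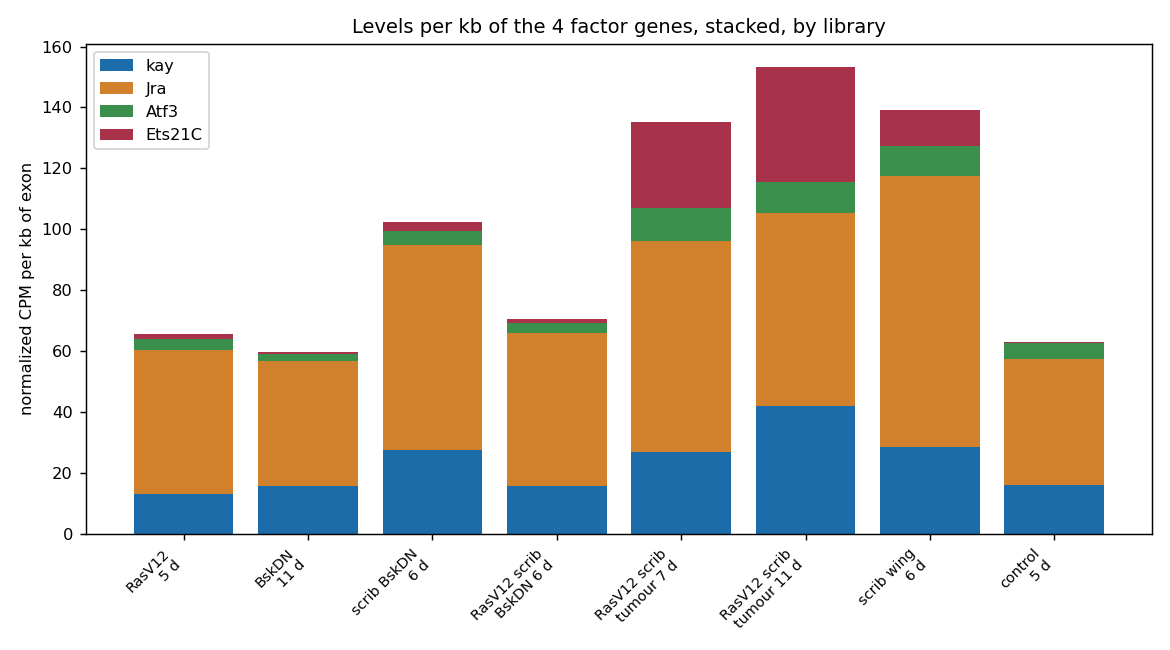
Stacked levels of the 4 factor genes per kb of exon (normalized CPM per kb) in each of the 8 libraries, 1 bar per library. Jra is the largest part of every bar, and Ets21C takes 28.4 CPM per kb in the day 7 tumour and 37.7 in the day 11 tumour, against 0.338 in the control.

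Across pairs of libraries a call needed a difference of 2-fold or more in log2 CPM, computed with a prior count of 2, and 5 CPM or more in the higher library. Shares of all genes are over the 10029 genes that reached 1 CPM in any library, all 4 factor genes among them. Folds are given without the prior count. Age differs along with genotype except in RasV12 over control, RasV12 scrib BskDN over scrib BskDN and the day 11 tumour over BskDN, which are matched in age, and the day 11 over the day 7 tumour, which are of 1 genotype. The study compared genotypes, and the first question is what active Ras does alone. RasV12 over control had 1 of the 4 genes called higher, Ets21C, where 2.88% of all genes were called higher and 5.60% lower. Ets21C was 4.41-fold higher (3.03 to 6.58). Jra was 1.14-fold higher, while kay, at a fold of 0.808, and Atf3, at 0.755, were lower within 2-fold. The median log2 difference of the 4 genes was -0.06, beside 0.03 over all genes. Salivary gland markers summed to 1392 CPM in RasV12 and 43.2 CPM in the control, and hemocyte markers to 475 CPM in RasV12 and 2249 CPM in the control. Their part in these differences was not tested.

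BskDN over control addressed the JNK block without a scrib change, at 11 against 5 days. Atf3 was called lower, 2.36-fold (2.05 to 2.72), where 4.99% of all genes were called lower and 2.96% higher. Kay, with a fold of 0.989 (0.933 to 1.05), and Jra, with 0.993 (0.918 to 1.07), differed by less than counting error. Ets21C was 1.71-fold higher (1.10 to 2.69), at 59 counts against 34, and was not called, at under 2-fold and under 5 CPM. Fat body markers summed to 5260 CPM in BskDN and 375 CPM in the control. They did not move together: Lsp2, Fbp1 and Fbp2 were called higher and Lsp1alpha and Lsp1gamma lower. Fbp1 alone was at 3641 against 94.8 CPM. Age and transgene cannot be told apart here.

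Loss of scrib with JNK blocked was addressed by scrib BskDN over control and over BskDN. Over control, Ets21C was called higher, 8.22-fold (5.76 to 12.1), where 6.91% of all genes were called higher and 7.80% lower. Kay was 1.72-fold higher (1.64 to 1.81) and Jra 1.62-fold (1.52 to 1.74), while Atf3, at a fold of 0.917, differed by less than counting error. The median log2 difference of the 4 genes was 0.74, beside 0.01 over all genes. Over BskDN, 2 of the 4 were called higher, Atf3 at 2.16-fold (1.88 to 2.49) and Ets21C at 4.80-fold (3.63 to 6.45), where 6.41% of all genes were, and 4.36% lower. Kay was 1.74-fold and Jra 1.64-fold higher. The ages were 6 and 11 days. Markers of neurons outside the retina moved with these comparisons, with a sum of 221 CPM in scrib BskDN, 73.0 CPM in BskDN and 32.0 CPM in the control. Salivary gland markers summed to 857 CPM in scrib BskDN, 17.2 CPM in BskDN and 43.2 CPM in the control. Fat body markers summed to 601 CPM in scrib BskDN, 5260 CPM in BskDN and 375 CPM in the control. The sums of hemocyte markers were 842 CPM in scrib BskDN, 1471 CPM in BskDN and 2249 CPM in the control. The part of these lists was not tested.

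In the tumour genotype all 4 genes were above the control, to very different degrees. In the day 7 tumour 2 of the 4 were called higher over control, Ets21C at 154 against 1.83 CPM and Atf3 at 2.05-fold (1.88 to 2.25), where 3.33% of all genes were called higher and 7.98% lower. Kay was 1.67-fold (1.59 to 1.75) and Jra 1.68-fold higher (1.57 to 1.80). The log2 difference of Ets21C lay above that of 99.9% of all genes, and those of kay and Jra lay above 90.2% and 90.3%. In the day 11 tumour kay (2.62-fold, 2.49 to 2.74) and Ets21C (112-fold, 79.8 to 161) were called higher, where 10.7% of all genes were, and 7.22% lower. Atf3 was 1.97-fold higher (1.79 to 2.16), just short of the threshold that it just passed in the day 7 tumour and that it passes with upper quartile scaling (2.02-fold), and Jra 1.53-fold higher (1.43 to 1.64). The median log2 difference of the 4 genes over control was 0.89 in the day 7 tumour, beside 0.02 over all genes, and 1.18 in the day 11 tumour, beside -0.02. Several marker lists moved with these comparisons. Glia markers summed to 176 CPM in the day 7 tumour, 314 CPM in the day 11 tumour and 58.9 CPM in the control. The sum of neuron markers was 34.1 CPM at day 7 and 236 CPM at day 11, against 32.0 CPM in the control, and that of fat body markers 31.5 CPM at day 7 and 71.6 CPM at day 11, against 375 CPM. The sum of retinal markers was lower, at 955 CPM at day 7 and 741 CPM at day 11, against 1387 CPM in the control. Of these 8 markers, gl and ato were called lower at day 7. At day 11 5 were called lower and elav higher, at 238 against 109 CPM. The part of these lists in the differences of the 4 genes was not tested.

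Set against RasV12 alone, the day 7 tumour had 3 of the 4 genes called higher, where 4.01% of all genes were, and 6.24% lower. Ets21C was 19.1-fold (16.3 to 22.5), Atf3 2.72-fold (2.47 to 3.00) and kay 2.06-fold higher (1.96 to 2.18), while Jra was 1.47-fold higher (1.38 to 1.57). The day 11 tumour over RasV12 had the same 3 genes called higher, where 10.5% of all genes were and 4.76% were lower, with Ets21C 25.3-fold, kay 3.24-fold and Atf3 2.61-fold higher. Salivary gland markers summed to 9.86 CPM in the day 7 and 14.8 CPM in the day 11 tumour, against 1392 CPM in RasV12. Fat body markers summed to 31.5 CPM in the day 7 and 71.6 CPM in the day 11 tumour, against 1266 CPM in RasV12, and the part of either list was not tested. The day 7 and day 11 tumour comparisons share their control and RasV12 libraries and are not independent of each other.

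Between the day 11 and the day 7 tumour, taken at 11 and 7 days, no member was called, where 9.45% of all genes were called higher and 1.15% lower. Kay had the largest ratio, 1.57 (1.51 to 1.63), at 326 against 208 CPM. Ets21C was 1.33-fold higher in the day 11 tumour (1.27 to 1.39), Jra was slightly lower at a fold of 0.910 (0.858 to 0.966), and Atf3 at 0.958 (0.891 to 1.03) differed by less than counting error. Ras85D was at 1181 CPM in the day 11 and 655 CPM in the day 7 tumour, and markers of neurons outside the retina summed to 236 CPM in the day 11 and 34.1 CPM in the day 7 tumour. Their part in the kay difference was not tested. At matched age, the day 11 tumour over BskDN, both taken at 11 days, had 3 of the 4 genes called higher, where 11.2% of all genes were, and 6.66% lower. Ets21C was 65.2-fold (50.5 to 85.8), Atf3 4.64-fold (4.09 to 5.29) and kay 2.65-fold higher (2.52 to 2.77), and Jra was 1.54-fold higher. Fat body markers summed to 71.6 CPM in the day 11 tumour and 5260 CPM in BskDN, and retinal markers to 741 CPM in the day 11 tumour and 1512 CPM in BskDN. Neuron markers summed to 236 CPM in the day 11 tumour and 73.0 CPM in BskDN, and glia markers to 314 CPM in the day 11 tumour and 74.2 CPM in BskDN. Their part was not tested.

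Blocking JNK in the tumour genotype addressed how far these levels go with JNK activity. Against the day 7 tumour, at 6 against 7 days, RasV12 scrib BskDN had 2 of the 4 genes called lower, where 4.20% of all genes were, and 6.85% higher. Ets21C was 24.8-fold lower (20.8 to 29.8) and Atf3 3.14-fold lower (2.83 to 3.48). Kay was 1.71-fold (1.63 to 1.80) and Jra 1.38-fold lower (1.30 to 1.47). The log2 differences of only 0.110% of all genes lay below that of Ets21C. Against the day 11 tumour 3 of the 4 were called lower, where 10.04% of all genes were and 4.32% were higher, with Ets21C 32.9-fold, Atf3 3.01-fold and kay 2.69-fold lower. The Ras85D level was also lower in RasV12 scrib BskDN, at 426 CPM, against 655 CPM in the day 7 and 1181 CPM in the day 11 tumour. Neuron markers summed to 95.5 CPM in RasV12 scrib BskDN, against 34.1 CPM in the day 7 and 236 CPM in the day 11 tumour. Fat body markers summed to 437 CPM in RasV12 scrib BskDN, against 31.5 CPM in the day 7 and 71.6 CPM in the day 11 tumour. All 6 fat body markers were called higher over each tumour. The share of clone cells in the discs was not measured, and the part of these values in the differences was not tested.

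Set against non-tumour libraries, the 4 genes in RasV12 scrib BskDN differed from each other. Kay was at 0.972 of the control level (0.919 to 1.03) and Jra at 1.22-fold (1.13 to 1.31). Atf3 was lower than the control, at a fold of 0.655 (0.582 to 0.736). Ets21C, however, was called higher than in the control, 3.39-fold (2.31 to 5.11), where 3.50% of all genes were called higher and 5.26% lower. Against RasV12, RasV12 scrib BskDN had no member called, where 2.79% of all genes were called higher and 1.84% lower. Ets21C had a fold of 0.771 (0.606 to 0.978) there, Atf3 0.867, kay 1.20 and Jra 1.06 (0.994 to 1.14). No member was called against BskDN alone either, where 1.84% of all genes were called higher and 1.88% lower, with Ets21C at 1.98-fold (1.45 to 2.75), just short of the threshold. Salivary gland markers summed to 11.04 CPM in RasV12 scrib BskDN and 1392 CPM in RasV12, and hemocyte markers to 1299 and 475 CPM. The sum of fat body markers was 437 CPM in RasV12 scrib BskDN, 1266 CPM in RasV12 and 5260 CPM in BskDN. The part of these lists was not tested.

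The 2 JNK-blocked scrib libraries differed from each other although both were taken at 6 days. RasV12 scrib BskDN over scrib BskDN had all 4 genes lower and Ets21C called lower, 2.42-fold (1.97 to 3.00), where 5.65% of all genes were, and 4.81% higher. Kay was 1.77-fold (1.68 to 1.86), Atf3 1.40-fold (1.25 to 1.57) and Jra 1.34-fold lower (1.25 to 1.42). The phosphatase gene puc was at 49.6 against 116 CPM. The bsk gene, in which reads from the transgene and the native gene are not told apart, was at 1891 against 1607 CPM, and the markers of neurons outside the retina summed to 95.5 against 221 CPM. Salivary gland markers summed to 11.04 against 857 CPM. Their part was not tested.

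**Figure D3:**
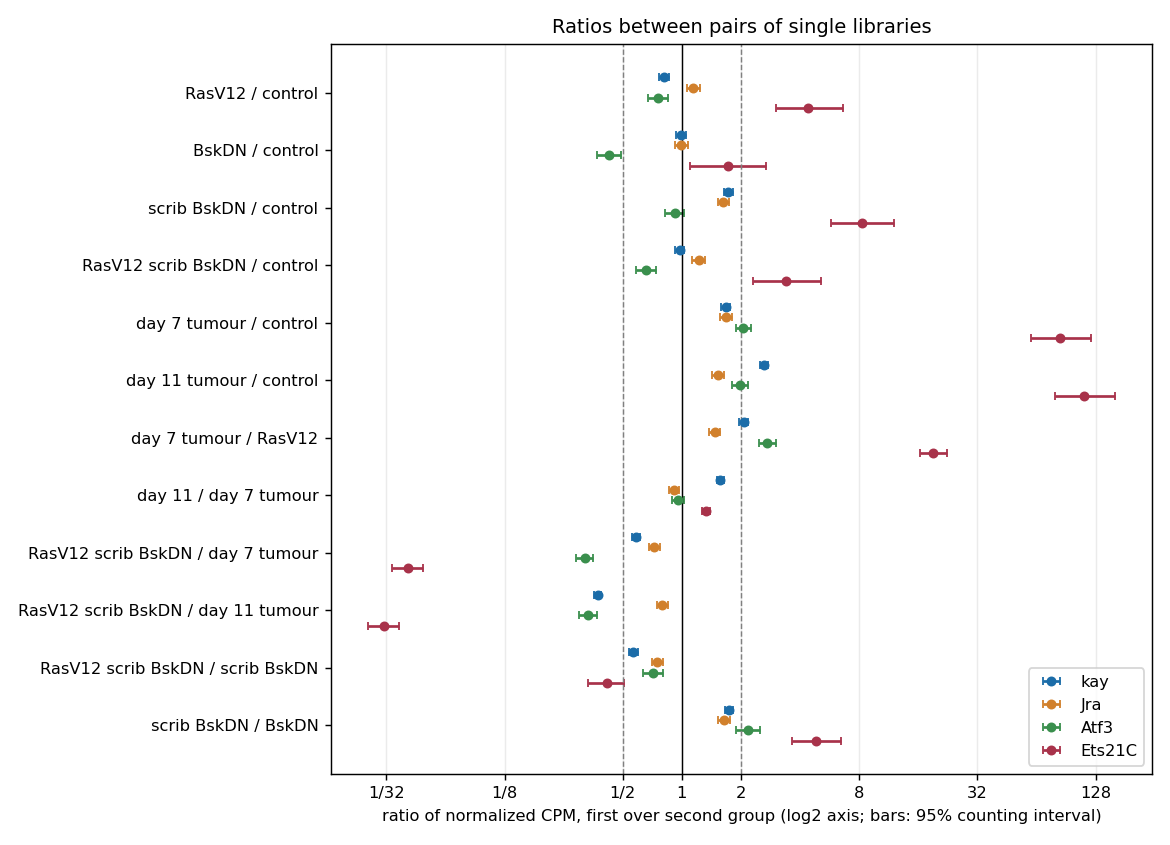
Ratio of normalized CPM between pairs of single libraries (log2 axis, first-named over second-named group) for the 4 genes, with 95% counting intervals. Dashed lines mark 2-fold. Ets21C lies farthest from 1 in all 12 pairs shown except BskDN over control, where Atf3 does, and day 11 over day 7 tumour, where kay does.

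The genes upstream, the JNK cascade from the ligand egr to the phosphatase puc, were listed as 15 genes, of which 14 were measured. In the day 7 tumour over control 2 were called higher, puc and Gadd45, and none lower, with a median log2 difference of 0.24. Of all genes, 3.33% were called higher and 7.98% lower there. The phosphatase gene puc, which AP-1 induces and which inactivates JNK, was at 153 against 46.4 CPM (3.29-fold, 3.05 to 3.55). Gadd45, a stress gene that acts on a JNK pathway kinase in mammals, was at 70.4 against 30.0 CPM (2.35-fold). The adaptor gene Traf4 was 1.80-fold and the kinase gene msn 1.65-fold higher. In the day 11 tumour over control 4 were called higher, Traf4, puc, Gadd45 and POSH, and 1 lower, the receptor gene wgn. The shares of all genes were 10.7% higher and 7.22% lower, so 1 gene lower is near the share over all genes. In RasV12 scrib BskDN over the day 7 tumour bsk, whose transgene that library carries, was called higher and puc lower, at 49.6 against 153 CPM. Among all genes 6.85% were called higher and 4.20% lower in that comparison. The level of egr itself was 33.0 CPM in the day 7 tumour, 47.7 CPM in the day 11 tumour and 40.7 CPM in the control, so the ligand gene was not called in either.

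A list of 12 genes known from other work to respond to JNK and its factors in discs was followed beside the 4 factor genes. In the day 7 tumour over control 11 of the 12 were called higher and none lower (median log2 difference 2.10), where 3.33% of all genes were called higher and 7.98% lower. In RasV12 scrib BskDN over the day 7 tumour 11 were called lower and none higher (-2.75), where 4.20% of all genes were called lower and 6.85% higher. Ilp8, the relaxin-like peptide that delays metamorphosis, was at 364 CPM in the day 7 tumour, 566 CPM in the day 11 tumour and 10.6 CPM in RasV12 scrib BskDN. Its control level was 2.09 CPM. The cytokine gene upd2 had 59.8 CPM in the day 7 tumour and 55.3 CPM in the day 11 tumour, 2.37 CPM in RasV12 scrib BskDN and 0.913 CPM in the control. The matrix metalloprotease gene Mmp1 had 1309 CPM in the day 7 tumour and 1282 CPM in the day 11 tumour, 125 CPM in RasV12 scrib BskDN and 68.6 CPM in the control. These response genes were thus high in both tumour libraries and lower where Bsk[DN] was added, with Ilp8 still 5.06-fold (3.59 to 7.31) and upd2 2.60-fold (1.47 to 4.81) above the control there. The cytokine gene upd3 had 43.4 CPM in the day 7 tumour and 55.6 CPM in the day 11 tumour, 2.37 CPM in RasV12 scrib BskDN and 0.967 CPM in the control. With RasV12 alone 1 of the 12, Ilp8, was called higher and 1, mol, lower, where 2.88% of all genes were called higher and 5.60% lower. In scrib BskDN over control puc, Mmp1 and Pvf1 were called higher and mol lower, where 6.91% of all genes were called higher and 7.80% lower. This list and the control comparisons had been seen in earlier results of these data, and puc is also a member of the JNK list.

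**Figure D4:**
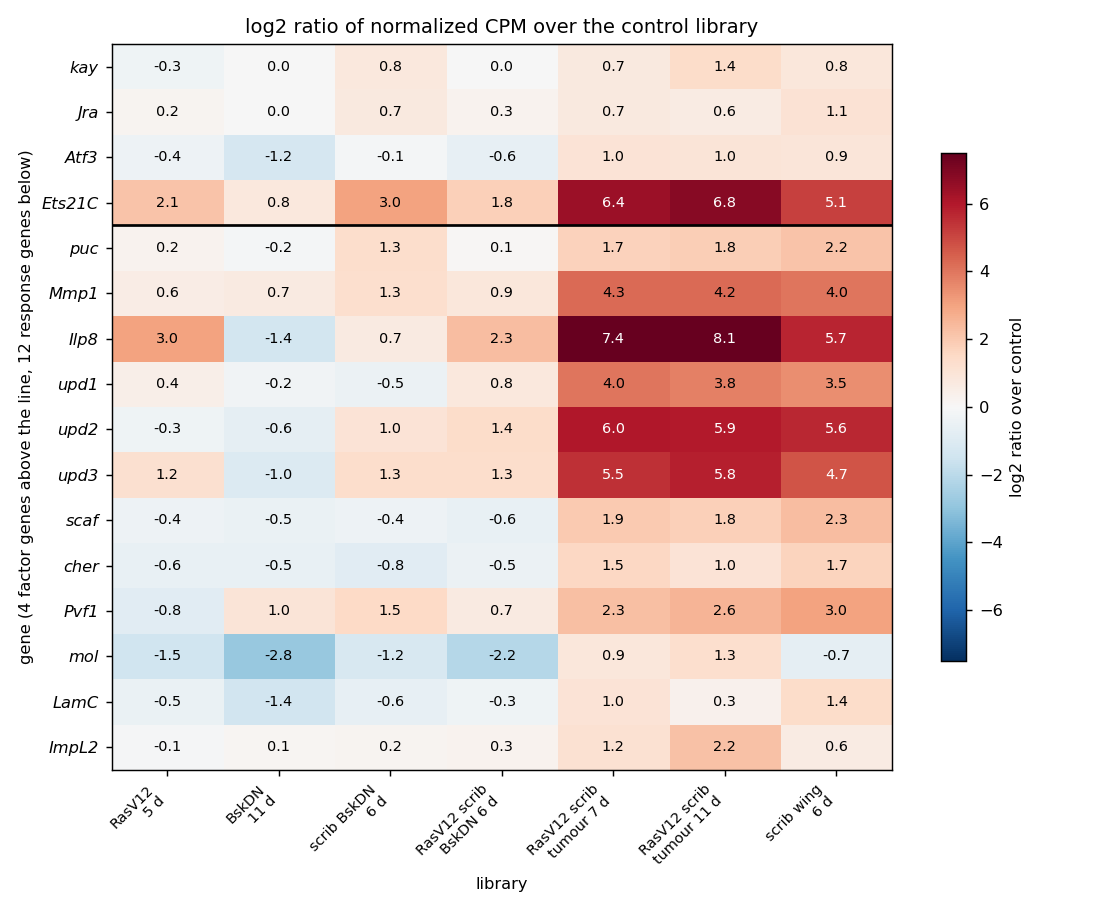
Log2 ratio of normalized CPM over the control library, without a prior count, for the 4 factor genes and 12 response genes in 7 libraries. Red is higher and blue lower than control. The library labelled scrib wing discs has no control of its kind, so its column is description only. The columns of the day 7 and day 11 tumour and of the library labelled scrib wing discs hold most of the deep red cells, with Ets21C, Ilp8, upd2 and upd3 the largest.

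Of the 7 other Ets genes 6 reached 1 CPM in some library, and none of these was called in either direction in the day 7 tumour over control (median log2 difference 0.38). With 3.33% of all genes called higher and 7.98% lower there, no call among so few genes is near the share over all genes. Ets65A had the largest ratio, 2.25 (1.15 to 4.66), at only 1.57 against 0.698 CPM. It was called higher in the day 11 tumour over control, at 401 counts against 13, where 10.7% of all genes were called higher and 7.22% lower. It was also called higher in RasV12 scrib BskDN over the day 7 tumour, at 7.41 against 1.57 CPM, where Ets21C was lower. Of all genes, 6.85% were called higher and 4.20% lower there. Ets98B was called lower in that last comparison, at 10.1 against 27.2 CPM. It was 1.46-fold and Ets97D 1.43-fold higher in the day 7 tumour. The effector pnt, which Ras/MAPK signalling activates, was called higher in RasV12 over control, at 192 against 84.1 CPM. In that comparison 2.88% of all genes were called higher and 5.60% lower. The level of pnt was 100.1 CPM in the day 7 tumour. Per kb of exon, Ets21C ranked 2 of 8 Ets genes in the day 7 and the day 11 tumour and 6 of 8 in the control. Only the repressor gene aop, at 59.3 CPM per kb in the day 7 tumour, 64.4 in the day 11 tumour and 55.9 in the control, ranked above it in the tumours.

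**Figure D5:**
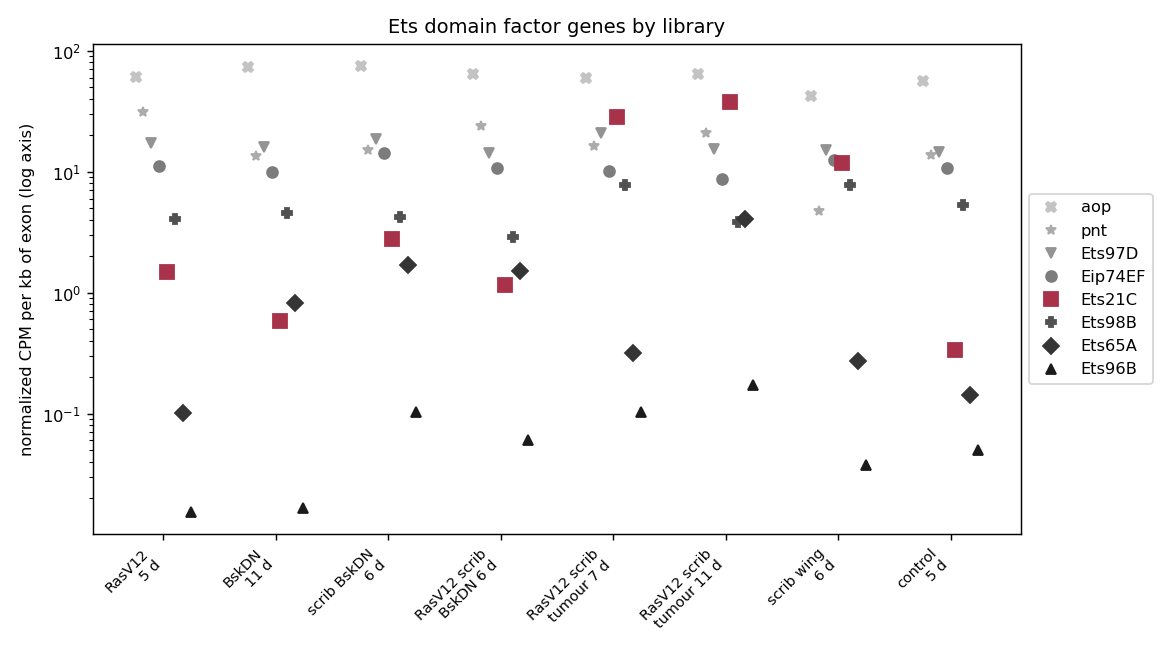
Levels of the 8 Ets domain factor genes per kb of exon (normalized CPM per kb, log axis) in each library. Ets21C, in red, ranks 2 of 8 in the day 7 and day 11 tumour and 6 of 8 in the control.

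Of 15 other bZIP genes 13 were measured, and none was called in the day 7 tumour over control (median log2 difference 0.20). That is near the shares over all genes, 3.33% called higher and 7.98% lower. Pdp1, a circadian and growth regulator, was 1.97-fold higher (1.80 to 2.16), and CrebA, a regulator of secretory capacity, 1.97-fold lower (1.83 to 2.13), both just short of the threshold. The patterning gene gt was at 2.10 against 0.913 CPM, too low to be called, and slbo, a C/EBP gene of migrating border cells, had 0 counts in the day 7 tumour and 1 in the control. In the day 11 tumour over control only Irbp18, a C/EBP-type gene, was called higher, at 54.8 against 20.1 CPM. The slbo gene, at 36 counts against 1, reached 1.80 CPM and was too low to be called. In that comparison 10.7% of all genes were called higher and 7.22% lower, so 1 gene higher is near the share over all genes. In RasV12 scrib BskDN over the day 7 tumour CrebA was called higher and Pdp1 lower. With 6.85% of all genes called higher and 4.20% lower, 1 gene each way is near the shares over all genes. Per kb of exon Jra ranked 4 of the 16 measured bZIP genes in the day 7 tumour and 5 in the control, and crc, the ATF4 gene of the unfolded protein and amino acid response, was first in every library.

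The 4 genes varied together over the 8 libraries to a degree. Pearson's r of log2 CPM ran from 0.77, for kay with Jra and for Jra with Atf3, to 0.86, for Atf3 with Ets21C, and Spearman's rho from 0.64 to 0.79. These are descriptions over 8 single libraries that share the contrast between tumour and other genotypes. The 5 genes most like each member were taken among 2283 named genes with at least 20 CPM in their highest library and a range of at least 1 on the log2 scale. They were picked by r over these same libraries, so a highest or lowest library shared with the member can follow from the choice. For Ets21C they were smash, which encodes a junction protein, with r of 0.985, the JAK/STAT feedback gene Socs36E (0.981), side-V (0.980), Hil (0.980) and Cep164 (0.978). Socs36E was at 303 CPM in the day 7 tumour, 350 CPM in the day 11 tumour, 81.9 CPM in RasV12 scrib BskDN and 58.8 CPM in the control. For Atf3 they were CR43281 (0.973), the transporter gene Abca3 (0.967), CG8547 (0.966), CG12065 (0.963) and the transcription factor gene apt (0.961), each of them lowest in BskDN, as Atf3 was.

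For Jra the list held CG6749 (0.954), puc (0.950), the kinase gene Nuak (0.949), the scaffold gene Magi (0.946) and the chloride channel gene Best1 (0.945), all 5 highest in the library labelled scrib wing discs, as Jra was. Thus puc, the JNK phosphatase gene, had a higher r with Jra than all but 1 of the 2283 genes did. For kay it held Gclc (0.952), which encodes the catalytic subunit of glutathione synthesis, the trehalose transporter gene Tret1-1 (0.943), CG42327 (0.935), raw (0.933), a negative regulator of JNK signalling in the embryo, and the cytoskeletal regulator gene sick (0.928), all 5 highest in the day 11 tumour. Tret1-1 was at 94.3 CPM in the day 11 tumour, 62.2 CPM in scrib BskDN, 26.9 CPM in the day 7 tumour and 19.1 CPM in the control. The raw gene was at 186 CPM in the day 11 tumour, 99.6 CPM in scrib BskDN, 136 CPM in the day 7 tumour and 56.2 CPM in the control.

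The library labelled scrib wing discs had no control of its kind, and its tissue and genotype cannot be told apart. Its levels were 222 CPM for kay (215 to 229.6), 146 CPM for Jra (141 to 152), 68.0 CPM for Atf3 (64.1 to 72.1) and 64.2 CPM for Ets21C (60.4 to 68.1). Jra was higher there than in any eye-antennal library, Atf3 lay next to the tumours, and Ets21C lay between the tumours and scrib BskDN. The response genes puc (208 CPM), Pvf1 (104 CPM), scaf (701 CPM), cher (1835 CPM) and LamC (365 CPM) also had their highest level there. The rest of the response list was highest in a tumour library. The ligand gene egr, at 22.2 CPM, had its lowest level in the library labelled scrib wing discs.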

How the data were processed

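The authors deposited 1 table of raw counts per gene with 1 column per library. Per the submitters' processing notes, TopHat2 and HTSeq were used. Not given in the sources used here: versions, genome build, annotation, strand setting and overlap rule. The 5 tally rows were left out: of all reads in a column, 3.41 to 7.33% fell outside genes, 1.46 to 1.83% were ambiguous and 14.8 to 27.8% had several alignments. Identifiers were named from a table in which 14639 of 15348 had a symbol, and 9 of 117 list entries were not matched. No column was left unused.

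TMM factors over all genes came from edgeR 4.0.16 (R 4.3.3), and log2 CPM took a prior count of 2. With 1 library per group no test was possible. Folds are ratios of normalized CPM with exact conditional binomial (Clopper-Pearson) 95% intervals, and levels have exact Poisson intervals. Both cover counting error only, as PCR copies were not removed by molecular identifiers. 1 count was worth 0.0473 to 0.0605 CPM. The share called is over the 10029 genes that reached 1 CPM in any library. Exon lengths came from the Ensembl BDGP6 annotation. The calling step and the intervals were tried on simulated counts. These held counting error only, so the trial checks the computation and cannot show how calls hold against replicate spread.

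The 4 genes are named throughout. In each list up to 4 genes with the largest log2 difference in the day 7 tumour over control are named, and the 5 genes most like each member. Other list genes (Irbp18, POSH, wgn, egr, mol, Pvf1, scaf, cher, LamC, aop, crc), Ras85D, bsk, scrib and genes that overlap a member were named after their values were seen. The members and lists were chosen with earlier results of these data known. The planned search of promoters for motifs was not run here. DESeq2 1.42.0 size factors, total counts, upper quartile scaling, other filters, prior counts of 0.5 and 10 and a 4-fold threshold were tried as alternatives.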

Additional observations from a re-analysis of the deposited data

Results flagged for a closer look

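For 3 results the same genetic change went with opposite directions in 2 backgrounds, each pair of ratios sharing no library and each ratio outside counting error. With 1 library per group the difference between the backgrounds was not tested.

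Active Ras went with more Ets21C RNA in RasV12 over control, 4.41-fold, and with less in RasV12 scrib BskDN over scrib BskDN, at a fold of 0.413. Active Ras likewise went with more Jra RNA in RasV12 over control, 1.14-fold, and with less in RasV12 scrib BskDN over scrib BskDN, at a fold of 0.749. Salivary gland markers also differed in both pairs. They summed to 1392 CPM in RasV12 against 43.2 CPM in the control. In RasV12 scrib BskDN they summed to 11.04 CPM, against 857 CPM in scrib BskDN. The part of these markers in the opposite directions was not tested. The JNK block went with more Ets21C RNA in BskDN over control, 1.71-fold at 59 against 34 counts and at 11 against 5 days, and with less in RasV12 scrib BskDN over the day 7 tumour, at a fold of 0.0403.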

How the results depend on the processing

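No paired analysis was possible because each group has 1 library, and for the same reason no replicate could be left out. The counts of members called in the 16 comparisons were the same under DESeq2 size factors, total counts, no filter, a filter of 5 CPM in 2 libraries, prior counts of 0.5 and 10, and no minimum level. Upper quartile scaling changed 1 of 32 counts: with Atf3 at 2.02-fold, 3 members were called higher in the day 11 tumour over control, and 19 over all comparisons. A 4-fold threshold changed 11 of the 32. Summed over comparisons it left 9 of 18 calls higher and 2 of 7 lower, and 7846 of 17859 calls over all genes; with no minimum level all genes gave 32362. At 4-fold the members called higher were 0 in RasV12 scrib BskDN over control, and 1 in the day 7 and day 11 tumour over control, in both over RasV12, and in scrib BskDN over BskDN, and 2 in the day 11 tumour over BskDN. Those called lower were 0 in BskDN over control and in RasV12 scrib BskDN over scrib BskDN, and 1 in RasV12 scrib BskDN over either tumour. Of 192 folds under other scalings 5 left their counting interval, all with total counts, and the ratio to the main value ran from 0.931 to 1.10. No called fold changed direction. The lists of most similar genes were less stable: with Spearman's rho they shared 1 of 5 genes for kay, Jra and Ets21C and 2 for Atf3, and over the 7 eye-antennal libraries 1 for kay, 4 for Jra and 3 for Atf3 and Ets21C. The lowest level, Ets21C in the control, rests on 34 counts, so folds over it have the widest intervals.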
